A study of Homo sapiens with 8 samples.

Results

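The genes described here carry 5-azacytidine (5azaC) into the cell, turn it into its active nucleotide or destroy it. The set holds 10 genes listed by symbol and was chosen with earlier results of these data known. It comprises the transporters SLC29A1 and SLC29A2, the kinases UCK1, UCK2, CMPK1, NME1, NME2 and DCK, and the deaminases CDA and DCTD. A named probe set was found for 7 of the 10, of 17687 genes named on the array. UCK2, NME1 and NME2 have no named probe set in the probe table used and were not analysed here, which leaves the first activating step of 5azaC with 1 of its 2 kinases and the last step with neither of the listed enzymes.

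H1299 is an established human non-small cell lung cancer line. Cells received gallic acid (GA, a phenolic acid of tea) or 5azaC for 120 h, and untreated cells of the same passage served as controls for each compound. RNA was hybridized to 8 Clariom S arrays, 2 biological replicates in each of 4 groups (GA, controls for GA, 5azaC and controls for 5azaC). The sample labels give a dose of 10 mM and the paper a dose of 10 μM, and the signals cannot settle which applied. Nothing in the labels says that replicates came from separate thaws or clones, so p-values measure the spread between these arrays.

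5azaC is a cytidine analog. It enters cells through equilibrative nucleoside transporters and is phosphorylated by uridine-cytidine kinases to the monophosphate, by the UMP/CMP kinase CMPK1 to the diphosphate and by nucleoside diphosphate kinases to the triphosphate. Ribonucleotide reductase turns part of the diphosphate into the deoxy form, which enters DNA, traps DNA methyltransferases and lowers methylation at CG sites. Cytidine deaminase, CDA, inactivates the nucleoside before phosphorylation. DCK, which phosphorylates deoxycytidine, is the activating kinase of the deoxy relative decitabine, and DCTD deaminates deoxycytidine monophosphate. GA is no nucleoside.

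The deposited values are log2 signals normalized by the authors, 1 per probe set and array. Signals of different probe sets are not set against each other, so each gene was read against the background of its own array, set at the signal under which 95% of the 612 negative controls lay. This background ran from 6.31 to 7.23 over the 8 arrays, and 39.9% to 46.1% of probe sets lay above it. Median log2 signals ran from 5.60 to 5.63 in the GA experiment and from 5.85 to 5.88 in the 5azaC experiment. Of the epithelial markers, KRT8 and KRT18 were above background on all 8 arrays, and KRT19, EPCAM and CDH1 on none. Of these 5, KRT8 and KRT18 rose after 5azaC, by 1.93 (adjusted p = 0.0203 from limma) and 1.34 (adjusted p = 0.042), and had 0.81 (adjusted p = 0.161) and 1.03 (adjusted p = 0.098) after GA. Their part in the results for the members was not tested. The mesenchymal markers VIM, CDH2 and FN1 were above background on all 8 arrays. The 4 lung lineage markers NKX2-1, SFTPB, SFTPC and NAPSA, the 3 measured leukocyte markers, the 2 endothelial and the 3 fibroblast markers were above background on none, so the labelled lung origin is not seen in lineage genes.

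Promoter sequences are shown for CDA, a member below background on all arrays, and for UCK1 and DCK, which lay lower and higher than the controls in every pair. CG dinucleotides, the sites at which methyltransferases act, are in capitals, and each run is the 250 bases before the start site as given by RefSeq (GRCh38.p14), 5′ to 3′ along the gene.
CDA, chr1:20588847-20589096, + strand: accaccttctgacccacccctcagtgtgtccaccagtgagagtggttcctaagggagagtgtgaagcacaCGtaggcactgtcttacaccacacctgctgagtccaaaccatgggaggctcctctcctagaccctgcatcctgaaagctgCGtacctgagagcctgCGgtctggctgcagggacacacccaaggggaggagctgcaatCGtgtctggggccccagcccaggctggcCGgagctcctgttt
UCK1, chr9:131531264-131531513, - strand: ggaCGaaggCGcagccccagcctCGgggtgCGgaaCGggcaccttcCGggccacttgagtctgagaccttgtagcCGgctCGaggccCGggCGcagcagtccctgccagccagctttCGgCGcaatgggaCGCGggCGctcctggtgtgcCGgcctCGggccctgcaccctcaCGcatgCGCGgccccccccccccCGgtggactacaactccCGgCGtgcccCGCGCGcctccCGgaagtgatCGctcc
DCK, chr4:70993399-70993648, + strand: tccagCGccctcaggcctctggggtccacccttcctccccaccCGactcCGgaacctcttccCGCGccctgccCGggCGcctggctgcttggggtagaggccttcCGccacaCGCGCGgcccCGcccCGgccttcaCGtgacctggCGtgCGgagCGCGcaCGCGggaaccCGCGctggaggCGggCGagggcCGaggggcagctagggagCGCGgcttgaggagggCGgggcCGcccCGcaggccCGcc
The CDA window held 5 CG, a count that 65.7% of 35116 promoter windows of this length reach or pass. The UCK1 window held 28 CG (15.9% of windows hold at least as many) and the DCK window 31 (10.9%). Their observed over expected ratios of CG, the count divided by that from the base composition, were 0.22 for CDA, 0.83 for UCK1 and 0.82 for DCK. Of the 10 genes, 9 have promoters in the table, and some have several start sites. The letters describe the windows and hold no measure of methylation, which the arrays did not measure.

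In untreated cells 5 of the 7 measured genes, SLC29A1, UCK1, CMPK1, DCK and DCTD, were above background on all 4 arrays. SLC29A2 and CDA were below it on all 4, and on the 4 treated arrays as well. SLC29A1, the main equilibrative nucleoside transporter, lay 3.68 to 5.32 log2 units above background in untreated cells. CMPK1 lay 3.48 to 4.33 above it and DCTD 4.39 to 4.71. UCK1 lay 2.25 to 3.90 above it and DCK 1.96 to 2.97. CDA, the inactivating deaminase, lay 3.54 to 4.76 log2 units below it. Against the 99th percentile of the negative controls, which ran from 8.90 to 9.66 in untreated cells, UCK1 was above on 3 and DCK on 1 of the 4 arrays, while SLC29A1, CMPK1 and DCTD were above on all 4.

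**Figure D1:**
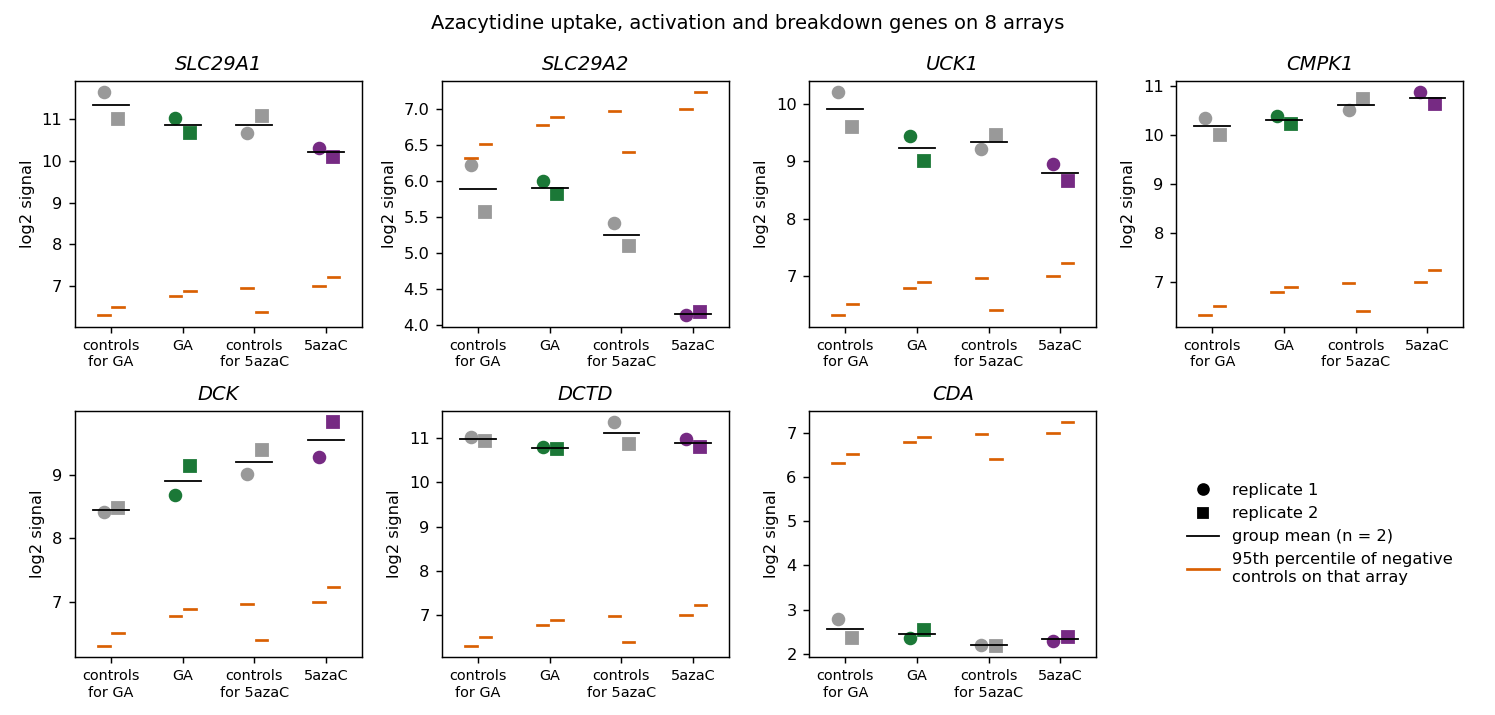
Log2 signal (vertical axis, scaled for each gene) of the 7 measured genes on the 8 arrays, grouped by treatment; circles and squares are replicates 1 and 2, black bars group means, and orange bars the 95th percentile of the negative controls on that array. SLC29A2 and CDA lie under the orange bars on all 8 arrays, and the other 5 genes lie above them.

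No measured member passed the test after GA or after 5azaC. The test was limma over all 21448 probe sets, in which treated and untreated replicates of the same number formed a block, and calls were made at a Benjamini-Hochberg adjusted p under 0.05. It called 0.322% of all probe sets after GA and 1.51% after 5azaC, so 0 calls among 7 genes is near that background. At an unadjusted p under 0.05, 1 member, UCK1, lay lower after GA (6.94% of all probe sets did) and 3, SLC29A1, SLC29A2 and UCK1, lay lower after 5azaC (9.61%), and none lay higher. In bulk RNA, fewer cells that express a gene and less of its RNA per cell cannot be told apart. Another tool, the methods' t-test as run here on the pairs, called 0 members after either compound, both at its own threshold and after adjustment. Of all probe sets it called 0.746% after GA and 1.29% after 5azaC at its own threshold. After adjustment it called 0.042% and 0.014%, so 0 of 7 members is near these shares and adds little. The median log2 fold change of the 7 was -0.11 after GA, against 0.02 over all probe sets, and -0.22 after 5azaC, against 0.05. The intervals rest on 2 residual degrees of freedom and 5.56 more that limma estimates from all probe sets. They are wide, and a change of moderate size cannot be told from none.

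SLC29A1, the transporter ENT1, was lower than its control in all 4 pairs. Its log2 signal was 11.02 and 10.66 after GA against 11.63 and 11.00 in the controls, so the groups overlapped. After 5azaC it was 10.31 and 10.09 against 10.65 and 11.06, and both treated arrays lay below both controls, as for 22.2% of all probe sets. The log2 fold change was -0.48 after GA (95% interval -1.03 to 0.08, adjusted p = 0.389 from limma) and -0.66 after 5azaC (-1.21 to -0.10, adjusted p = 0.181). The effects of the compounds differed by 0.18 (-0.60 to 0.97, adjusted p = 0.934). In order of their means, the groups ran from 10.20 ± 0.16 (SD, n = 2) after 5azaC through 10.84 ± 0.25 after GA and 10.86 ± 0.29 in the controls for 5azaC to 11.32 ± 0.44 in the controls for GA, and apart from 5azaC their arrays overlapped.

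SLC29A2, the second equilibrative transporter ENT2, had signals of 4.13 and 4.17 after 5azaC against 5.41 and 5.09 in the controls. After GA it had 6.00 and 5.81 against 6.22 and 5.56. All 8 values lay below the background of their arrays, by 0.10 to 3.06 log2 units, so no change in this transcript is read from them. The measured difference was -1.10 after 5azaC (standard error 0.23, adjusted p = 0.0641 from limma) and 0.02 after GA (standard error 0.23, adjusted p = 0.982). It passed the test after 5azaC without the pair block (adjusted p = 0.0386), a setting in which 4.14% of all probe sets passed. The difference between the effects of the compounds, 1.12 (0.36 to 1.87), did not pass (adjusted p = 0.743), nor did that of any other probe set (0% called, with 6.67% at an unadjusted p under 0.05).

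UCK1, 1 of the 2 uridine-cytidine kinases that can start the activation of 5azaC, was also lower than its control in all 4 pairs. The other, UCK2, has no named probe set here, so this step was measured in part. Its log2 signal was 9.45 and 9.01 after GA against 10.21 and 9.61 in the controls, with no overlap. After 5azaC it was 8.95 and 8.66 against 9.22 and 9.47, again with no overlap. Over all probe sets, 21.4% lay lower without overlap after GA and 22.2% after 5azaC. The log2 fold change of UCK1 was -0.69 after GA (95% interval -1.21 to -0.16, adjusted p = 0.206 from limma), a level 1.61-fold lower. It was -0.54 after 5azaC (-1.06 to -0.01, adjusted p = 0.236), a level 1.45-fold lower. The effects differed by -0.15 (-0.89 to 0.59, adjusted p = 0.945).

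CMPK1, the UMP/CMP kinase of the second phosphorylation, overlapped its controls after both compounds. Its log2 signal was 10.39 and 10.22 after GA against 10.35 and 9.99, and 10.87 and 10.62 after 5azaC against 10.50 and 10.73. The log2 fold change was 0.13 after GA (-0.39 to 0.65, adjusted p = 0.843 from limma) and 0.13 after 5azaC (-0.39 to 0.65, adjusted p = 0.797). These intervals leave out a fold change of 2 in either direction.

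DCK, deoxycytidine kinase, was higher than its control in all 4 pairs. It had log2 signals of 8.68 and 9.13 after GA against 8.41 and 8.47, without overlap, which 25.3% of all probe sets showed in this direction. After 5azaC it had 9.28 and 9.82 against 9.01 and 9.38, and the groups overlapped. The log2 fold change was 0.46 after GA (-0.04 to 0.96, adjusted p = 0.358 from limma) and 0.36 after 5azaC (-0.15 to 0.86, adjusted p = 0.404). The effects differed by 0.11 (-0.61 to 0.82, adjusted p = 0.962).

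DCTD, the deaminase of deoxycytidine monophosphate, lay slightly under its control in all 4 pairs. It had log2 signals of 10.80 and 10.75 after GA against 11.02 and 10.93, without overlap, which 21.4% of all probe sets showed in this direction. After 5azaC it had 10.99 and 10.80 against 11.36 and 10.87, with overlap. The log2 fold change was -0.20 after GA (-0.68 to 0.29, adjusted p = 0.72 from limma) and -0.22 after 5azaC (-0.71 to 0.27, adjusted p = 0.61). These intervals leave out a fold change of 2.

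CDA, cytidine deaminase, had log2 signals of 2.36 and 2.55 after GA against 2.78 and 2.36, and of 2.30 and 2.38 after 5azaC against 2.21 and 2.19. All 8 arrays were at least 3.54 log2 units below background, and no change is read. The 5azaC-treated arrays were no exception, at 4.70 and 4.85 below it.

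**Figure D2:**
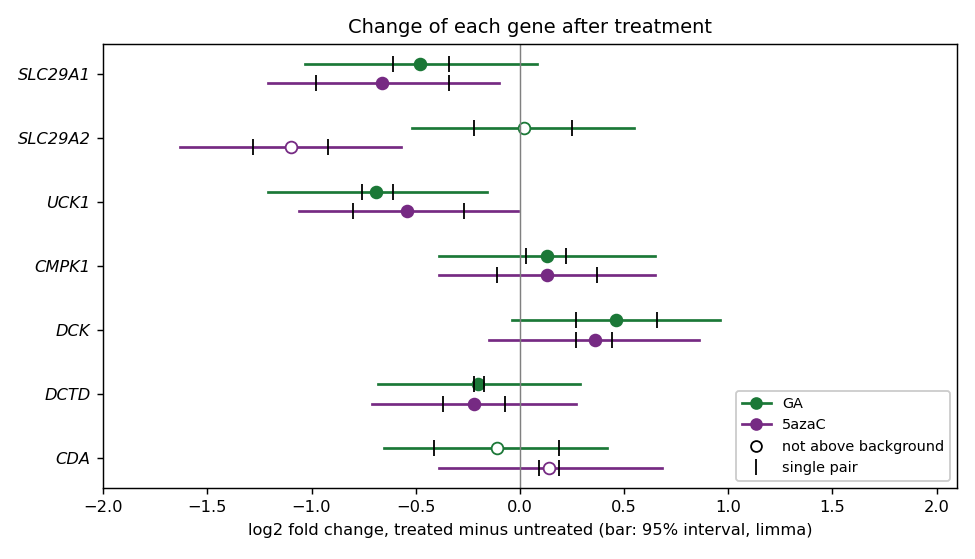
Log2 fold change, treated minus untreated (horizontal axis), of the 7 measured genes after GA (green) and 5azaC (purple); circles are limma estimates with 95% intervals, ticks the single pairs, and open circles genes below background on all 8 arrays. The ticks of SLC29A1, UCK1 and DCTD lie left of 0 and those of DCK right of 0 for both compounds, and no gene had an adjusted p under 0.05.

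The 5 detected genes thus divided into SLC29A1, UCK1 and DCTD, lower in all 4 pairs, DCK, higher in all 4 pairs, and CMPK1, with mixed signs. Among the 7989 probe sets above background on all 8 arrays, 22.5% were lower in all 4 pairs and 25.4% higher. The 3 and 1 of 5 seen here are few genes to read against these shares. GA and 5azaC were set against separate controls, and the signs of a pair follow its own untreated array.

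For DCK, UCK1, CMPK1 and SLC29A1 the untreated arrays of the experiments differed by 0.44 to 0.75 log2 units, against 0.13 to 0.69 between treated and untreated cells. No member passed in this comparison, in which 19.3% of all probe sets did (limma on the 4 groups without the pair term), and 2, SLC29A2 and DCK, had an unadjusted p under 0.05, as 35.4% of all probe sets did. Probe sets that did not overlap made up 43.4% in the higher and 20.8% in the lower direction. DCK was higher on the untreated arrays of the 5azaC experiment, at 9.01 and 9.38, than on those of the GA experiment, at 8.41 and 8.47, a difference of 0.75 (95% interval 0.18 to 1.32, adjusted p = 0.064). This is larger than its log2 fold change after either compound, but not after quantile normalization, where the untreated difference was 0.35 and the changes 0.44 after GA and 0.38 after 5azaC. UCK1 differed by -0.57 (-1.15 to 0.01, adjusted p = 0.149), and CMPK1 differed by 0.44 (-0.05 to 0.93, adjusted p = 0.181). After quantile normalization UCK1 differed by -0.96 (adjusted p = 0.043) and CMPK1 by 0.04. SLC29A1 differed by -0.46 (-1.05 to 0.13, adjusted p = 0.245) and DCTD by 0.14 (-0.35 to 0.63, adjusted p = 0.687). The median over all probe sets was 0.18 in this comparison, so the difference of DCK is smaller relative to the array, and that of UCK1 larger. Experiment and array batch cannot be told apart here.

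The controls of the experiments were also exchanged, a choice made after the data were seen. In this setting 22.6% of all probe sets passed after GA and 31.7% after 5azaC. DCK then had a log2 fold change of -0.29 for GA (limma, adjusted p = 0.441) and of 1.11 for 5azaC (adjusted p = 0.00908). UCK1 had -0.12 after GA and -1.11 after 5azaC (adjusted p = 0.0102), and SLC29A1 had -0.02 and -1.11 (adjusted p = 0.0104). The exchanged value holds the difference between the untreated arrays as well as the change. For DCK, UCK1 and SLC29A1 after 5azaC both had the same sign, so their signs could not turn and are no check. After GA, the sign of DCK rests on its own controls. UCK1 and SLC29A1, at -0.69 and -0.48 after GA against their own controls, shrank with the exchange.

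**Figure D3:**
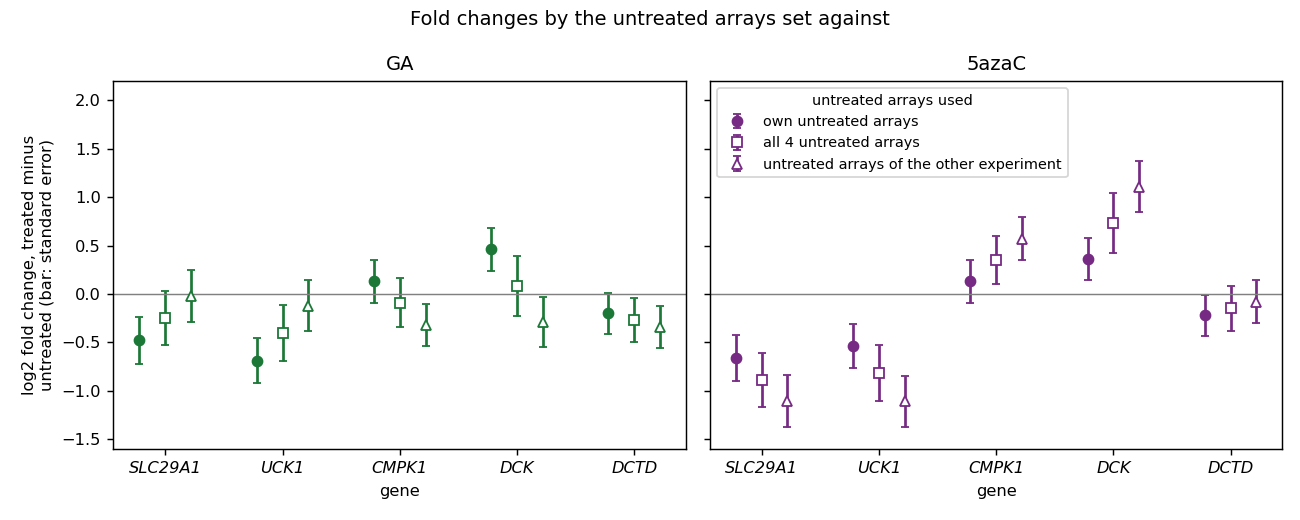
Log2 fold change (vertical axis, bars are standard errors) of the 5 detected genes after GA and 5azaC, set against their own untreated arrays (filled circles), all 4 untreated arrays (squares) or those of the other experiment (triangles). DCK after GA moves from 0.46 to -0.29 with the choice, and UCK1 after 5azaC from -0.54 to -1.11.

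By the rule for naming similar genes, profiles over the 8 arrays were compared for the 2 members with the lowest unadjusted p, SLC29A2 and UCK1. The measure was the root mean square distance in log2 units between profiles, each less its own mean, over 7041 named genes above background on all 8 arrays. Closest to UCK1 were SUPT4H1, a transcription elongation factor (0.131), PVR, the poliovirus receptor (0.147), and ACADVL, a mitochondrial fatty acid dehydrogenase (0.152), where the median gene was at 0.644. SUPT4H1 had log2 signals of 11.90 and 11.59 after GA against 12.53 and 11.81, and of 11.52 and 11.16 after 5azaC against 11.77 and 11.81. It shares with UCK1 the high first control for GA and the low second array of 5azaC. Closest to SLC29A2 were S100A11, a calcium-binding protein (0.179), and DPAGT1 and ALG3, enzymes of N-glycan assembly (0.204 and 0.235, median 0.944), although the SLC29A2 profile itself lies below background. The profiles carry the step between experiments as well as the treatments.

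Around these members, 52 other genes of nucleoside transport and nucleotide metabolism were listed by role, of which 47 were measured. These lists were also chosen with earlier results of these data known, so their counts are descriptive. At an adjusted p under 0.05 from limma, 1 of the 47 was higher and 1 lower after GA, where 0.0793% of all probe sets were higher and 0.242% lower. After 5azaC 1 was higher and 3 were lower, where 0.518% were higher and 0.988% lower. At an unadjusted p under 0.05, in either direction, 14 of the 47 passed after GA (15.8% of all probe sets) and 14 after 5azaC (20.3%). The median log2 fold change of the 47 was 0.03 after GA and 0.01 after 5azaC, where all probe sets had 0.02 and 0.05.

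None of the 5 other nucleoside transporters was above background on any array, among them the concentrative carriers SLC28A1, SLC28A2 and SLC28A3 and the equilibrative SLC29A3 and SLC29A4. None passed the test (limma, with 1 after GA and 0 after 5azaC at an unadjusted p under 0.05, against 15.8% and 20.3% of all probe sets). Of the 7 measured nucleoside transporters, SLC29A1 alone was above background in these cells. Of the 5 nucleotide efflux pumps, ABCC4 and ABCC10 were above background on all 8 arrays, and ABCC5, ABCC11 and ABCG2, the breast cancer resistance pump, on none. None passed the test (limma, with 2 after GA and 2 after 5azaC at an unadjusted p under 0.05, as 15.8% and 20.3% of all probe sets did). The 2 after GA were ABCC10, lower, and ABCG2, higher by 1.02. The 2 after 5azaC were ABCG2 and ABCC5, higher by 1.39 and 0.48. ABCG2 and ABCC5 lay below background, so no change is read from them. ABCC10 had log2 fold changes of -0.56 after GA (adjusted p = 0.312) and -0.33 after 5azaC (adjusted p = 0.488).

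Of the 13 measured other kinases, NME6, a nucleoside diphosphate kinase family member of mitochondria, fell after both compounds. Its log2 signal was 6.40 and 5.99 after GA against 7.88 and 7.88, and 5.53 and 5.61 after 5azaC against 7.42 and 7.48. The treated arrays were below background and the controls above it, so the change is given as a bound. By this bound NME6 was lower after GA by at least 2.07-fold (limma, adjusted p = 0.0304). After 5azaC it was lower by at least 1.26-fold (adjusted p = 0.0174). The bound is the control mean against the background percentile of the treated arrays, and carries no error. NME6, at most 7.88, lay under the 99th percentile of the negative controls, 8.90 to 9.66, on all untreated arrays. Its detection in the controls thus depends on the background chosen. With the first or second GA pair left out NME6 had a log2 difference of -1.90 and -1.48 after GA, in fits in which no probe set passed. Fitted on the 4 arrays of the 5azaC experiment alone, where 22 probe sets passed, its adjusted p was 0.06. NME4, the mitochondrial nucleoside diphosphate kinase, had a log2 fold change of 0.35 for GA (adjusted p = 0.521) and of -0.25 for 5azaC (adjusted p = 0.606), and NME3 was below background on all 8 arrays. TK1, the thymidine kinase of S phase, had 0.90 after GA (adjusted p = 0.11) and 0.10 after 5azaC (adjusted p = 0.841), and its effects did not pass the test of their difference (adjusted p = 0.743). UCKL1 and NME7 have no named probe set here.

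Of the 7 measured 5'-nucleotidases, which remove phosphate from nucleoside monophosphates, NT5C fell after 5azaC. NT5C, a cytosolic deoxyribonucleotidase, had log2 signals of 7.27 and 7.53 after 5azaC against 8.91 and 9.10. It fell by 1.61 on the log2 scale (standard error 0.22, adjusted p = 0.0259 from limma), a level 3.05-fold lower. The treated signals lay close above the backgrounds of their arrays, 7.00 and 7.23, so the size of this fold is uncertain. Fitted on the arrays of the 5azaC experiment alone the adjusted p of NT5C was 0.0795, and without the first 5azaC pair it was 0.0505. After GA it had 7.37 and 7.90 against 8.43 and 8.54, a log2 fold change of -0.85 (adjusted p = 0.131). The difference between the compounds did not pass (adjusted p = 0.743). NT5C3A, which acts on pyrimidine monophosphates, had a log2 fold change of 0.11 for GA (adjusted p = 0.854) and of 0.01 for 5azaC (adjusted p = 0.985). NT5C2 had -0.52 (adjusted p = 0.298) and -0.16 (adjusted p = 0.732).

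Of the 5 measured genes of pyrimidine phosphorolysis and catabolism, UPP1, uridine phosphorylase, passed the test after 5azaC. Its log2 signal was 5.52 and 5.56 after 5azaC against 7.11 and 7.03 in the controls (adjusted p = 0.0298 from limma). The treated arrays lay below background and the control mean of 7.07 lay under the mean background of the treated arrays, so no fold is given. UPP1, at most 7.11, also lay under the 99th percentile of the negative controls, 8.90 to 9.66, on all untreated arrays. With the 5azaC experiment fitted alone the adjusted p of UPP1 was 0.0837, and without the first 5azaC pair it was 0.0661. After GA it had 6.14 and 5.67 against 7.00 and 6.95 and did not pass the test (limma, adjusted p = 0.0897), so no bound is given. DPYD, which starts the breakdown of uracil and thymine, had a log2 fold change of 0.77 for GA (adjusted p = 0.159) and of 0.52 for 5azaC (adjusted p = 0.237). UPP2, DPYS and UPB1 were above background on no array.

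None of the 5 genes that make UMP and CTP, the natural competitors of 5azaC nucleotides, passed after either compound (limma), although all 5 were above background on all 8 arrays. At an unadjusted p under 0.05, 1 gene, DHODH, passed after each compound, against 15.8% (GA) and 20.3% (5azaC) of all probe sets. DHODH, dihydroorotate dehydrogenase, had log2 fold changes of -0.54 after GA (adjusted p = 0.306 from limma) and -0.80 after 5azaC (adjusted p = 0.113). UMPS, which makes UMP, had 0.27 (adjusted p = 0.681) and 0.35 (adjusted p = 0.477). CTPS1, a CTP synthase, had -0.16 (adjusted p = 0.78) and -0.25 (adjusted p = 0.557).

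Of the 7 lists of nucleoside metabolism, the 7 genes of deoxynucleotide synthesis and clearance had the highest medians, 0.50 after GA and 0.55 after 5azaC, and all 7 were above background on all 8 arrays. RRM2, the small subunit of the reductase that makes the deoxy form of 5azaC diphosphate, had log2 signals of 13.44 and 13.46 after GA against 11.65 and 12.00, and of 13.60 and 13.24 after 5azaC against 12.74 and 12.67. It rose after GA by 1.63 (adjusted p = 0.0344 from limma), while the value after 5azaC was 0.71 (adjusted p = 0.13). SAMHD1, a hydrolase of deoxynucleoside triphosphates, had 11.23 and 11.08 after 5azaC against 9.84 and 10.03. It rose by 1.22 (standard error 0.22, adjusted p = 0.0457), and the value after GA was 1.23 (adjusted p = 0.0729). Against all 4 untreated arrays RRM2 had 1.19 after GA (adjusted p = 0.119), and with exchanged controls it had 0.75 after GA and 1.59 after 5azaC. Without the first or second GA pair it had 1.46 and 1.80 after GA, in fits in which no probe set passed. The adjusted p of SAMHD1 after 5azaC was 0.101 with that experiment fitted alone, and 0.161 and 0.0666 without the first or second 5azaC pair. Untreated cells of the 5azaC experiment had more RRM2 signal than those of the GA experiment, by 0.88 (adjusted p = 0.0215). Neither gene passed the test of a difference between the compounds (adjusted p = 0.743 for RRM2 and 0.999 for SAMHD1). TYMS, of the same list, had 0.79 after GA (adjusted p = 0.141 from limma) and 0.93 after 5azaC (adjusted p = 0.0733). At an unadjusted p under 0.05, 3 of the 7 passed after GA and 5 after 5azaC, against 15.8% and 20.3% of all probe sets. DCK, which feeds the same pool, had smaller values, 0.46 and 0.36.

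**Figure D4:**
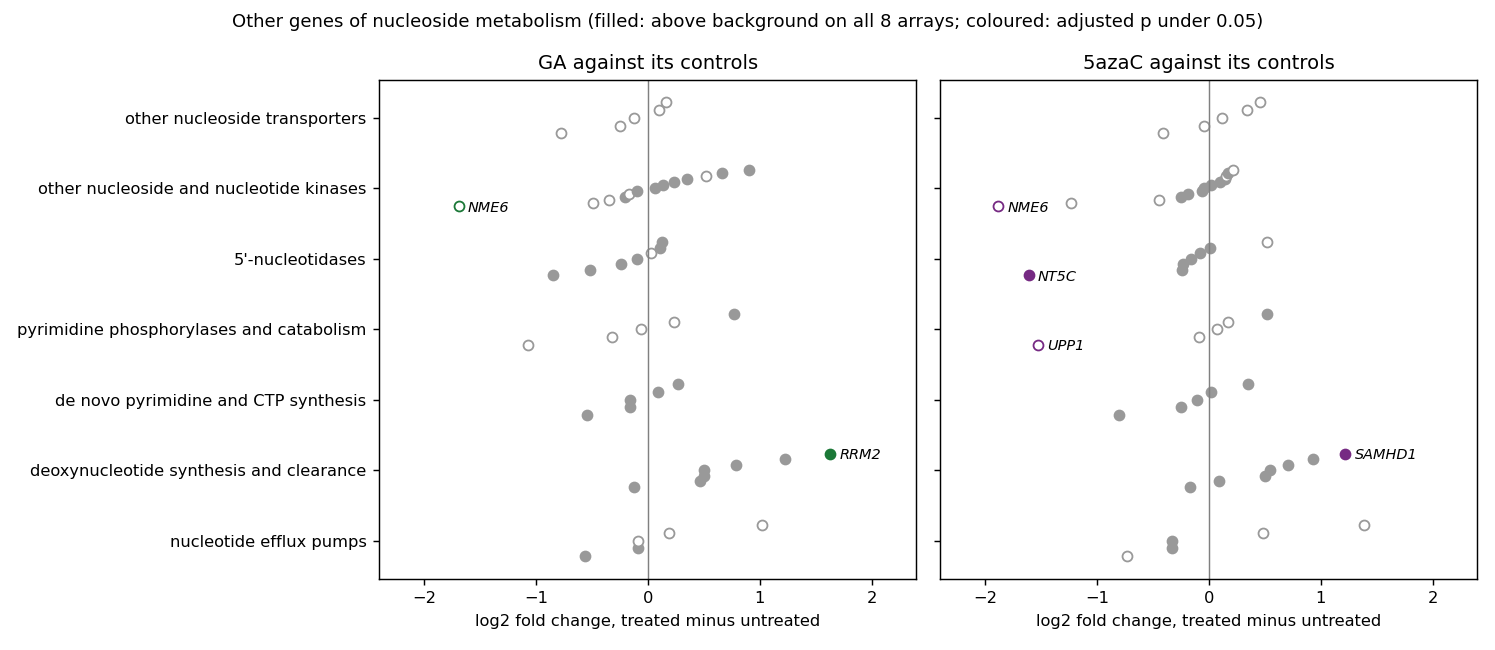
Log2 fold change, treated minus untreated (horizontal axis), of 47 other genes of nucleoside metabolism in 7 lists (vertical axis) after GA (left) and 5azaC (right); filled circles are genes above background on all 8 arrays and coloured ones had an adjusted p under 0.05. The coloured circles are NME6 and RRM2 after GA, and NME6, NT5C, UPP1 and SAMHD1 after 5azaC.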

How the data were processed

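RNA of H1299 cells was measured on 8 Clariom S arrays, 2 for each of 4 groups taken from the sample labels. The authors used Affymetrix Expression Console 1.4, with RMA after a Signal Space Transformation, and deposited its log2 signals per probe set. No genome build is stated for the probe sets, so none is given for them.

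The table has 24351 entries. Without its 2903 controls, 21448 probe sets were tested, of which 17709 have a gene symbol in a platform table. The brightest probe set of a gene was used; each measured member has only 1. limma 3.58.1 (R 4.3.3; lmFit, eBayes) was fitted on all 8 arrays with the pair as a block, after the paired test that the methods name, leaving 2 residual degrees of freedom, and p-values were Benjamini-Hochberg adjusted. Deviations of paired arrays from their group means correlated at -0.023 (GA) and 0.0289 (5azaC), so the arrays show no pairing. Untreated groups were compared without the block. The fit was tested on simulated data. The members, the gene lists and the naming rule (every member, every called gene of a list, up to 3 others per list, and the 3 most similar profiles for the 2 members with the lowest p) were chosen with earlier results of these data known.

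Alternatives were no block, separate fits, quantile normalization, median centring, a filter on the dimmest 33%, trend and robust eBayes, other controls, the methods' t-test and each pair left out. The number of arrays limits the precision.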

Additional observations from a re-analysis of the deposited data

Results flagged for a closer look

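DTYMK, the thymidylate kinase, moved in opposite directions after the compounds in every pair, at 0.52 on the log2 scale for GA (limma, adjusted p = 0.35) and at -0.45 for 5azaC (adjusted p = 0.343). The difference of 0.97 did not pass the test (adjusted p = 0.743), and DTYMK was above background on 4 of 8 arrays. DPYS, dihydropyrimidinase, also had opposite signs in its pairs, with a difference of -0.23 (adjusted p = 0.895), and lay below background on all 8 arrays.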

How the results depend on the processing

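The count of members called after GA was 0 as reported and in each alternative run that kept both GA pairs. In these runs the share of all probe sets called ran from 0.042% with the methods' t-test after adjustment to 22.6% with exchanged controls. With trend and robust settings it was 5.64%. After 5azaC it was 0 as reported and 1, SLC29A2, without the replicate block (adjusted p = 0.0386, where 4.14% of all probe sets passed), without the dimmest 33% of probe sets (0.0355, 6.36%), with trend and robust settings (0.033, 8.57%) and against all 4 untreated arrays (0.0279, 3.64%). It was 4 with the controls of the experiments exchanged (31.7%), and 0 with the 5azaC experiment fitted alone (0.103%). The block changed no other call of a member. Between untreated arrays the count was 0 as reported and 1 in each of 4 alternatives, namely UCK1 after quantile normalization, SLC29A2 after median centring, and DCK without dim probe sets or with trend and robust settings (10.4%, 15.5%, 29.9% and 23.1% of all probe sets). With the 99th percentile of the negative controls as background, 3 members were above it in untreated cells in place of 5, and 6 with their median. Without the block the pathway lists had 4 called genes after GA in place of 2, and 6 after 5azaC in place of 4. Of those named as called, NME6 and RRM2 after GA passed in 8 and 7 of 10 distinct fits (the paired t-test apart, in which none of them passed after adjustment), and NME6, NT5C, UPP1 and SAMHD1 after 5azaC in 9, 8, 8 and 7 of 10, with the same sign in each. Leaving out a pair of the other experiment gives the same fit as the separate one and is counted once. The 10 fits include exchanged controls, where 22.6% (GA) and 31.7% (5azaC) of all probe sets passed, and each of these genes did. They also include the fits with a pair left out, so the tally is no measure of how firm a call is. Without a GA pair no probe set passed after GA, so these fits say nothing on single genes.

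No difference whose sign turned was past the threshold on either side, DCK after GA, at 0.46 as reported, being the largest. After GA, CMPK1 had -0.09 and CDA 0.07 against all 4 untreated arrays, and -0.32 and 0.26 with exchanged controls, where DCK had -0.29. With a pair left out, CDA ran from -0.41 to 0.19 and SLC29A2 from -0.22 to 0.25. After 5azaC, CDA had -0.04 against all untreated arrays and -0.23 with exchanged controls, and CMPK1 ran from -0.11 to 0.37 with a pair left out. In the difference between the compounds, DCTD had -0.03 after quantile normalization. With a pair left out this difference ran from -0.14 to 0.50 for SLC29A1, -0.42 to 0.12 for UCK1, -0.25 to 0.24 for CMPK1, -0.09 to 0.30 for DCK, -0.55 to 0.05 for CDA and -0.12 to 0.17 for DCTD. Between untreated arrays DCTD had -0.25 after quantile normalization and -0.10 after median centring. The cause was not tested. A mean over several probe sets was not run, since each measured member has 1. In fits without a pair, the remaining arrays of that treatment are assumed to vary like those of the other.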
